A study of Caenorhabditis elegans with 123 samples.

Results

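The nuclear hormone receptor genes of Caenorhabditis elegans were taken as all genes whose symbol is nhr- followed by a number, without nhr-25. A gene entered where the array's annotation gave a probe set this symbol and no other, and the probe set with the highest mean over all arrays stood for it where there were several. This gave 254 genes from 292 probe sets, out of 17138 genes that the arrays measure by a probe set with 1 symbol. Each of the 254 was found in the RefSeq gene table, 11 of them as pseudogenes and the others as protein-coding genes.

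Nuclear hormone receptors are transcription factors with a DNA-binding domain of zinc fingers and, in most members, a domain that can bind a small lipophilic ligand such as a steroid or a fatty acid. Nematodes carry a greatly expanded set, most of it related to the vertebrate receptor HNF4, and a smaller number with clear counterparts in insects and vertebrates. In C. elegans members are known for roles in fat metabolism, diet and stress responses, moulting, sex determination and the identity of neurons and epidermis, and for many no function is known.

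Affymetrix arrays were used to measure transcripts in staged embryos collected at 22 °C, at 0, 23, 41, 53, 66, 83, 101, 122, 143 and 186 min after the 4-cell stage. N2 is the standard wild-type strain (34 arrays). Embryos of mex-3(zu155); skn-1(RNAi), written mex-3/skn-1 (28 arrays), carry a mutation of the RNA-binding protein gene mex-3 and received RNA interference against skn-1, a gene for a maternal transcription factor that specifies the mesendoderm blastomere EMS. Embryos of pie-1(zu154), written pie-1 (27 arrays), lack function of a maternal zinc finger protein by which germline blastomeres repress transcription, and those of pie-1(zu154); pal-1(RNAi), written pie-1/pal-1 (34 arrays), also received RNA interference against pal-1, a caudal-type homeobox gene that specifies the C and D lineages. The genotypes and times make 40 groups of 2 to 4 arrays.

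The deposited values are on a log2 scale, so that a difference of 1 is 2-fold. Array medians lay between 3.24 and 3.41. Precision is limited by the number of arrays. The labels do not say whether replicates are separate embryo collections, and p-values therefore cover the spread of these arrays alone, which may be technical. Differences below are given ± SE from a limma fit over all arrays and all 22548 probe sets, and a gene was called (and "rose" or "fell" is written) where the difference was 2-fold or more with an adjusted p under 0.05. The early window is 0, 23 and 41 min (11 arrays of pie-1/pal-1, 10 of N2 and 8 of each of the other genotypes), and the late window is 101, 122, 143 and 186 min (13 of pie-1/pal-1 and 12 of each other genotype). Scan days, known for 96 arrays (only 1 of them of pie-1), each held arrays of 1 genotype, so scan day and genotype cannot be told apart in any comparison between genotypes. In N2 1 day held 9 of the 10 early arrays and another 10 of the 12 late ones, so in N2 time and scan day are also largely the same, whereas each day of pie-1/pal-1 arrays, and each of mex-3/skn-1 arrays, held both windows. Over probe sets averaging at least 5 the median difference was -0.505 in late mex-3/skn-1 minus N2, -0.34 in pie-1 minus N2 and -0.239 in pie-1/pal-1 minus N2, and genotype differences of bright members are to be read against these shifts.

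Several arrays went against their group or label. The pair of mex-3/skn-1 arrays at 143 min stood farthest apart of all groups, with a root mean square distance of 0.805 over all probe sets against a median of 0.309 over arrays, and 15 arrays in all were over 1.5 times that median. The pie-1 transcript was near the floor in pie-1 arrays (3.16 to 3.76 early, against 6.86 to 8.20 in early N2), and mex-3 in mex-3/skn-1 arrays (3.16 to 3.95 early, against 6.38 to 9.02), although over all times mex-3 reached 6.36 there, within the N2 range of 4.30 to 9.02. The skn-1 transcript was dim in all genotypes, with early medians of 3.67 in mex-3/skn-1 and 3.91 in N2. The pal-1 transcript in pie-1/pal-1 arrays of replicates 3 and 4 lay between 5.32 and 6.79 over all times (n = 15), whereas that of the other replicates ranged from 4.95 to 12.21 (n = 19), and 1 pie-1 array reached 12.49. Where a window call of a receptor gene ended without such arrays, its value without them is given beside it.

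Most receptor genes were not detected at these stages. Taking a log2 value of 5 as the level for a detected transcript, 26 of the 254 genes (10.24%) reached it in at least 1 of the 40 groups, compared with 5321 of the 17138 genes on the array (31.05%). At 0 min in N2, when transcripts are almost all those laid down in the oocyte, 9 receptor genes (3.54%) reached it against 21.24% of all genes. The share depended on the level chosen, with 40 genes (15.75%) at a level of 4.5 and 15 genes (5.91%) at 5.5, and was below that of all genes at each level (35.55% and 27.23%). A low value cannot tell an absent transcript from a rare one, and probes differ in brightness, so the level is a convention.

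The genes were sorted by their N2 values. Maternal genes had an N2 mean of at least 5 at 0 min, zygotic genes were below 5 at 0 min and rose from the early to the late N2 window, and silent genes stayed below 5 in all 40 groups without such a rise. There were 9 maternal genes (nhr-66 and nhr-12, which fell, and nhr-13, nhr-20, nhr-49, nhr-70, nhr-71, nhr-78 and nhr-86, which were not called in N2), 8 zygotic genes (nhr-2, nhr-34, nhr-46, nhr-57, nhr-64, nhr-67, nhr-68 and nhr-232) and 226 silent genes. The other 11 genes (nhr-4, nhr-10, nhr-15, nhr-23, nhr-47, nhr-60, nhr-61, nhr-122, nhr-152, nhr-171 and nhr-243) reached 5 somewhere but fitted none of these classes. Just inside the level were nhr-122 (5.00 in its highest group), nhr-4 (5.08) and nhr-15 (5.12), and just outside it nhr-64 (4.99), nhr-260 (4.92) and nhr-68 (4.86). In N2 at 0 min nhr-61 lay at 4.96 and nhr-46 at 4.92, just under the maternal level. The name zygotic thus stands for a rise from below 5 and does not exclude maternal transcript.

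**Figure D1:**
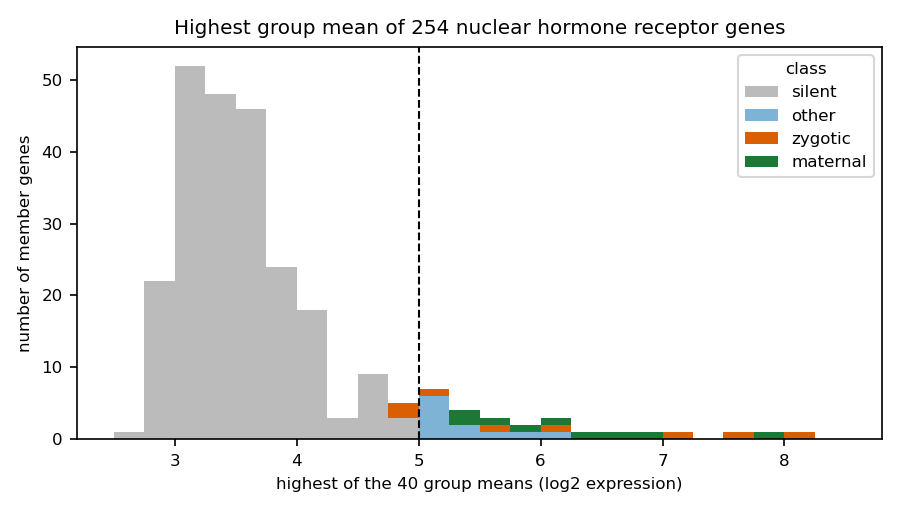
Number of the 254 receptor genes (vertical axis) by the highest of their 40 group means on the log2 scale (horizontal axis), coloured by class, with the detection level of 5 as a dashed line. The 226 silent genes lie between 2.72 and 4.92, and 26 genes lie at or above the line.

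The silent genes had highest group means between 2.72 and 4.92, with a median of 3.44. Of 12 receptors on a list of genes with counterparts outside nematodes or close similarity to HNF4, 9 were silent. Among these were nhr-6, the counterpart of the vertebrate NR4A receptors (highest group mean 3.93), nhr-8, a relative of DAF-12 with roles in sterol and xenobiotic responses (3.85), and nhr-85, the counterpart of Rev-erb and insect E75 (3.72). The other members of that list were nhr-64 and nhr-67, both zygotic, and nhr-23. Of 10 receptors known for roles in lipid and nutrient responses 4 were silent, namely nhr-62, which takes part in the response to dietary restriction, nhr-76, nhr-80, a regulator of fatty acid desaturation, and nhr-114. Of the remaining 6, nhr-13, nhr-49, nhr-66 and nhr-86 were maternal, nhr-68 was zygotic and nhr-10 reached 5 without a class. In the silent class nhr-181 was called lower in late N2 and nhr-100 in late pie-1 although both stayed under 5 throughout. Silent here names a low level and not a lack of change. At 186 min in N2 21 of the 254 receptor genes were called against 0 min (8.27%, background 17.3%), 15 higher and 6 lower, and the silent genes nhr-32, nhr-69, nhr-79, nhr-137 and nhr-163 were among those called higher. The silent gene nhr-45 was called higher in N2 at 83 min, at 1.04 ± 0.19 (adjusted p = 4.79e-06, background 16.6%), and nhr-8 in pie-1/pal-1 at 186 min, at 1.05 ± 0.15 (adjusted p = 7.13e-09, background 14.8%).

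The genes that were not silent differed from the silent ones in their place in the genome and in their number, a comparison chosen after their values were seen. By the RefSeq order of protein-coding genes, 5 of the 28 (17.9%) lay next to another nhr gene, against 51.6% of the 215 silent genes that could be placed. A gene number of at most 100 was carried by 23 of the 28 (82.1%) and by 67 of the 226 silent genes (29.6%). None of the 28 is a pseudogene, and 11 of the silent genes are. The probe sets of 7 of the 28 (nhr-4, nhr-20, nhr-23, nhr-47, nhr-60, nhr-61 and nhr-86) and of 17 silent genes are of a type that can also detect related transcripts, so values of these genes are uncertain.

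**Figure D2:**
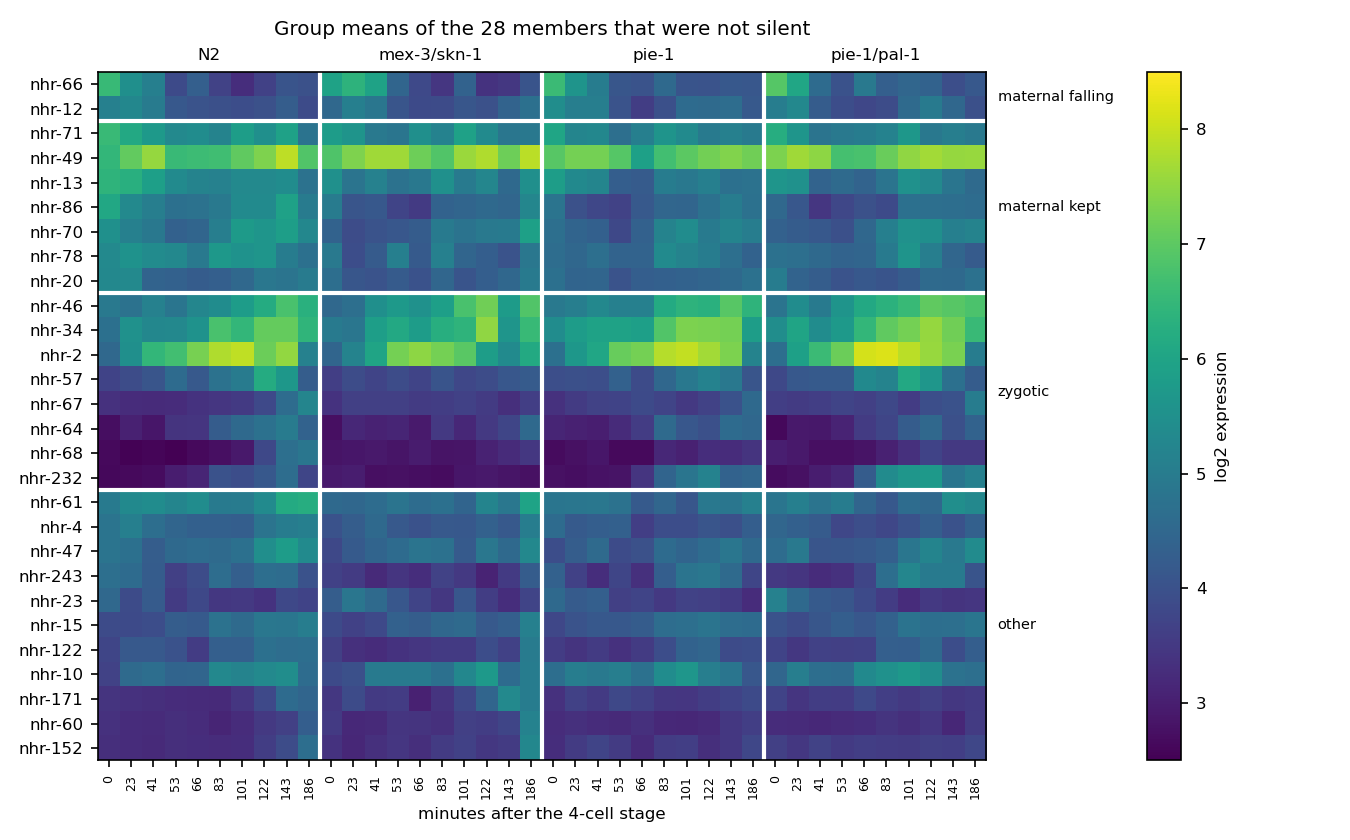
Group means (colour, log2 expression) of the 28 genes that were not silent, in rows ordered by class and within a class by the N2 mean at 0 min, over the 10 times in each of the 4 genotypes in columns. The nhr-66 row darkens with time in each genotype, the nhr-2 row brightens and then darkens, and nhr-232 and nhr-57 stay dark in mex-3/skn-1.

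Of the 254 receptor genes 11 were called between the early and the late N2 window, 8 higher and 3 lower, or 4.33% against 14.9% of all probe sets tested (6.70% higher and 8.24% lower). Since these calls define the classes, their values are given as a description, and tests of a gene's window change rest on the mutant arrays. Differences from N2 and N2 changes at single times use the N2 arrays that chose the classes. Their p-values are therefore not independent of that choice for genes of these classes. For zygotic genes late and maternal genes early, the direction of a difference from N2 is in part set by it. In the mutants' own arrays 5 receptor genes were called in mex-3/skn-1 (background, the share of all probe sets called, 9.92%). There were 7 in pie-1 (13.7%), while pie-1/pal-1 had 10 (12.9%). The share called lay below that of all probe sets in each genotype. Receptor genes also reached the level of 5 less often (10.24% against 31.05% of all genes), and the shares called were not adjusted for this. Of the 8 zygotic genes 2 rose in mex-3/skn-1 (4.11% of all probe sets rose), 5 rose in pie-1 (5.46%) and 6 rose in pie-1/pal-1 (6.80%), with median changes of 0.52, 1.21 and 1.35. In pie-1 all 8 changes were positive, as were all 8 in pie-1/pal-1 and 6 in mex-3/skn-1. These 8 genes were chosen for a rise in N2, and the share of N2-rising probe sets that rose in each mutant was not computed. The share of all probe sets is therefore no matched background for them. The median late minus early change of the 226 silent genes was 0.02 in N2, 0.05 in pie-1, -0.01 in pie-1/pal-1 and 0.02 in mex-3/skn-1. In whole embryos fewer cells of a type and less RNA per cell cannot be told apart.

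The maternal gene nhr-66, known as a partner of NHR-49 in the control of lipid genes, fell in every genotype. Its 3 N2 arrays at 0 min measured 6.78, 6.50 and 6.33, and those at 41 min 4.99, 4.75 and 5.55. At 101 min they measured 3.71, 2.83 and 3.33, below every array of the early window. The N2 difference between windows was -1.96 ± 0.17. In the arrays that the class did not use it was -2.27 ± 0.19 (adjusted p = 1.38e-18) in mex-3/skn-1, -1.65 ± 0.18 (adjusted p = 7.02e-13) in pie-1 and -1.61 ± 0.17 (adjusted p = 3.04e-14) in pie-1/pal-1. At 41 min the mex-3/skn-1 arrays measured 6.38, 6.24 and 5.25 and the pie-1/pal-1 arrays 4.73, 4.40, 4.79 and 4.49, groups that do not overlap, with a difference of 1.35 ± 0.30 (adjusted p = 0.000862, background 4.18%). At 66 min the difference was called with the opposite sign, mex-3/skn-1 being lower, at -1.10 ± 0.35 (adjusted p = 0.0382, background 3.82%). At 122 min mex-3/skn-1 was again lower, at -1.01 ± 0.28 (adjusted p = 0.00999, background 3.66%). The dimmer nhr-66 probe set gave -1.23 ± 0.10 in N2, -0.88 ± 0.11 in pie-1, -0.66 ± 0.10 in pie-1/pal-1 and -0.80 ± 0.11 in mex-3/skn-1, short of the 2-fold minimum in the mutants.

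The other falling gene was nhr-12. In N2 it lay from 4.67 to 5.42 with a median of 5.25 in the early window (n = 10) and from 3.75 to 4.34 with a median of 3.97 in the late window (n = 12), ranges that do not overlap. The change was -1.12 ± 0.13. In the mutants it was -0.53 ± 0.14 (adjusted p = 0.00143) in mex-3/skn-1, -0.70 ± 0.13 (adjusted p = 8.07e-06) in pie-1 and -0.37 ± 0.12 (adjusted p = 0.0118) in pie-1/pal-1, short of the 2-fold minimum in each. Single times passed it, as at 53 min against 0 min in pie-1, at -1.41 ± 0.29 (adjusted p = 0.000123, background 9.60%), and in pie-1/pal-1, at -1.14 ± 0.22 (adjusted p = 2.82e-05, background 10.4%). The N2 value of nhr-12 was -0.85 under quantile normalization, -0.96 with arrays centred on probe sets averaging at least 5, -0.97 over the times with lettered N2 arrays and -0.78 with scan day as a block, and each ended the call.

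Among the maternal genes that were not called between the windows, nhr-49, a central regulator of fatty acid oxidation and desaturation, had its N2 arrays from 6.18 to 7.69 with a median of 7.10 in the early window and from 6.71 to 7.99 with a median of 7.16 in the late one. The mutants had late nhr-49 medians of 7.19 in pie-1, 7.60 in pie-1/pal-1 and 7.83 in mex-3/skn-1, and the ranges overlap in both windows. The late difference of nhr-49 from N2 was 0.32 ± 0.11 (adjusted p = 0.0138) in mex-3/skn-1, -0.10 ± 0.10 (adjusted p = 0.451) in pie-1 and 0.29 ± 0.10 (adjusted p = 0.0267) in pie-1/pal-1, all under the 2-fold minimum. At single times nhr-49 did pass it. Against 0 min it was called higher in N2 at 41 min, at 1.06 ± 0.21 (adjusted p = 8.58e-05, background 4.25%), and at 143 min, at 1.43 ± 0.21 (adjusted p = 1e-08, background 17.6%), and lower in pie-1 at 66 min, at -1.05 ± 0.23 (adjusted p = 0.000185, background 14.4%). Against N2 it was called higher in mex-3/skn-1 at 53 min, at 1.06 ± 0.22 (adjusted p = 0.000389, background 5.60%), and at 186 min, at 1.01 ± 0.19 (adjusted p = 8.32e-05, background 2.59%). The dimmer nhr-49 probe set went the other way in mex-3/skn-1, at -1.02 ± 0.16 from N2, so the direction of that difference depends on the probe set. The windows also hide courses within N2 of nhr-13, a regulator of fatty acid desaturation together with NHR-49, nhr-71 and nhr-86, a receptor that senses a bacterial metabolite in the intestinal immune response. In N2 at 0 and 66 min nhr-13 averaged 6.39 and 5.19, nhr-71 6.58 and 5.42, and nhr-86 6.10 and 4.77. At 143 min nhr-71 stood at 5.94 and nhr-86 at 5.94, and at 186 min at 4.79 and 5.003.

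**Figure D3:**
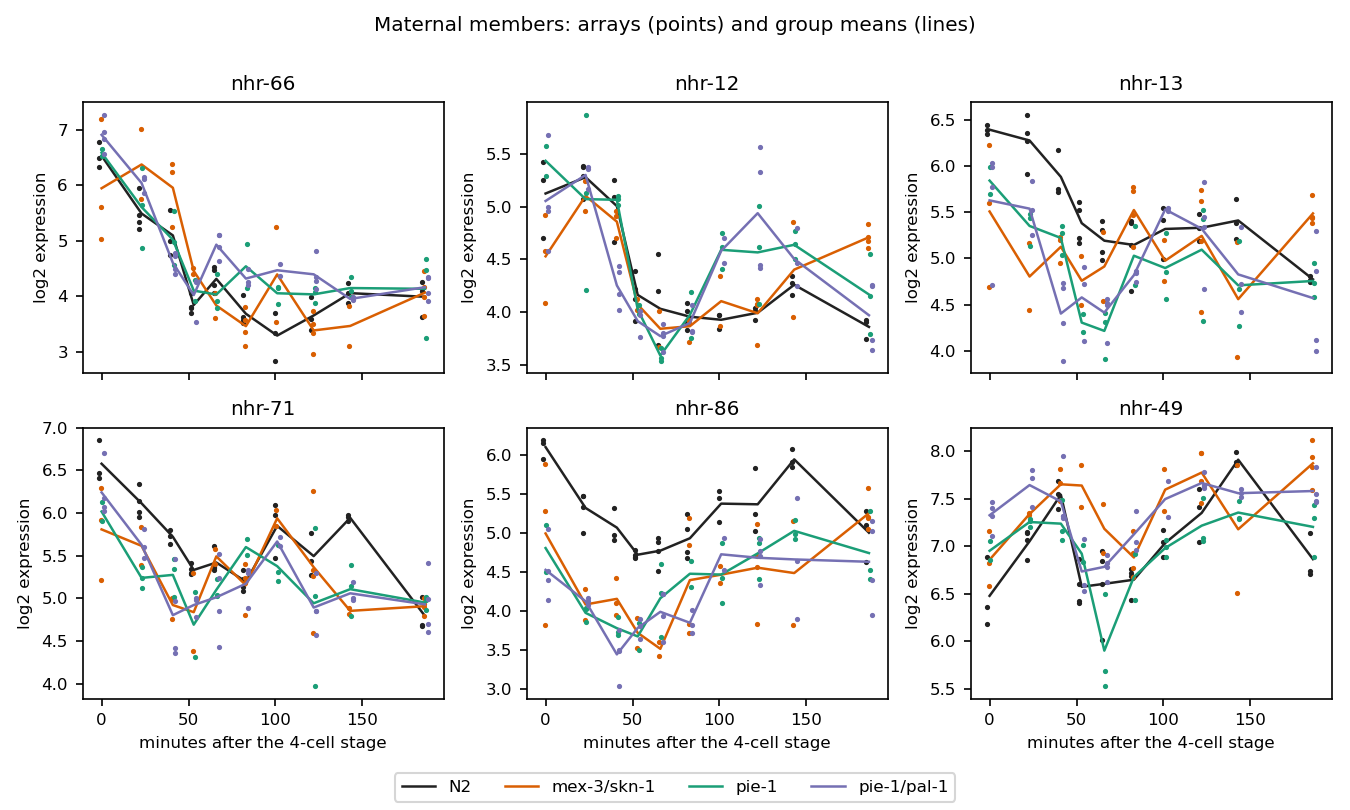
Values of 6 maternal genes on each array (points, log2 expression) and group means (lines) over time in minutes after the 4-cell stage, with 1 colour per genotype and a separate vertical scale in each panel. The nhr-66 transcript falls in all genotypes, nhr-49 stays between 5.90 and 7.91 as a group mean, and nhr-86 starts lower in the 3 mutants than in N2.

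Maternal levels differed between genotypes in the early window for a few genes. In mex-3/skn-1 5 receptor genes were called, all lower than in N2 (background 7.19%, and 6.82% lower). In pie-1 only nhr-86 was called, lower (2.56%, and 2.37% lower), and in pie-1/pal-1 nhr-86 and nhr-243, both lower (3.92%, and 3.78% lower). At 0 min nhr-86 measured 6.15, 5.95 and 6.19 in N2, 5.28, 3.83 and 5.88 in mex-3/skn-1, 4.51 and 5.11 in pie-1 and 4.52, 5.05, 4.14 and 4.40 in pie-1/pal-1. The lowest N2 array lay above every pie-1 and pie-1/pal-1 array, and the mex-3/skn-1 arrays were spread more widely but also lay below it. Over the early window the difference of nhr-86 from N2 was -1.08 ± 0.18 (adjusted p = 9.24e-07) in mex-3/skn-1, -1.31 ± 0.18 (adjusted p = 2.33e-08) in pie-1 and -1.46 ± 0.17 (adjusted p = 1.58e-11) in pie-1/pal-1. The mex-3/skn-1 value of nhr-86 was -0.55 when arrays were centred on probe sets averaging at least 5, and those of nhr-78, nhr-70, nhr-243 and nhr-13, between -1.07 and -1.04, came to between -0.50 and -0.53 in the same setting. All 5 calls ended there and under quantile normalization, which also ended the pie-1 call of nhr-86 at -0.92 and the pie-1/pal-1 call of nhr-243 at -0.83. With replicates 3 and 4 of pie-1/pal-1 alone the latter was -0.96 and also ended. Early mex-3/skn-1 arrays had a mean difference between the 3' and 5' GAPDH probe sets, a measure of RNA integrity, of 1.64, against 0.92 in early N2. With this difference as a covariate all 5 mex-3/skn-1 calls ended, at -0.94 for nhr-13, -0.99 for nhr-70, -0.82 for nhr-78, -0.90 for nhr-86 and -0.91 for nhr-243. Without arrays far from their group the calls of nhr-13 (-0.98), nhr-70 (-0.98) and nhr-86 (-0.95) ended too. The pie-1/pal-1 call of nhr-86 held under every alternative tried, from -1.03 to -1.60. The 3 contrasts against N2 share the N2 arrays.

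An early zygotic rise was that of nhr-2, a receptor gene active in early somatic blastomeres and needed for embryonic development. In N2 it measured 4.70, 4.07 and 4.81 at 0 min, 6.55, 6.30 and 6.60 at 41 min and 7.90, 7.87 and 7.98 at 101 min. By 186 min it was back to 5.40, 4.63 and 5.41. Every array from 41 to 143 min lay above all arrays at 0 min. The same course was seen in pie-1 (group means 4.70, 6.05, 7.95 and 5.18 at these times) and in pie-1/pal-1 (4.67, 6.59, 7.87 and 5.03). Against 0 min nhr-2 was first called higher at 41 min in pie-1, at 1.35 ± 0.33 (adjusted p = 0.00373, background 4.51%), and at 23 min in pie-1/pal-1, at 1.23 ± 0.28 (adjusted p = 0.00275, background 1.65%).

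In mex-3/skn-1 nhr-2 measured 5.80, 6.23 and 6.01 at 41 min, above all its arrays at 0 min, and its highest group mean was 7.47, against 7.92 in N2. At 122 min its 4 arrays measured 5.01, 5.93, 5.92 and 6.53, all below the N2 arrays of that time (6.93, 7.27 and 7.25), and the difference was -1.30 ± 0.28 (adjusted p = 0.00027, background 7.67%). At 186 min nhr-2 was not called between mex-3/skn-1 and N2. Against pie-1/pal-1 it was called lower in mex-3/skn-1 at 122 min but higher at 186 min. The 4 mex-3/skn-1 arrays measured 5.94, 6.43, 6.20 and 5.97 and the 4 pie-1/pal-1 arrays 5.44, 4.97, 4.52 and 5.17, groups that do not overlap, with a difference of 1.11 ± 0.26 (adjusted p = 0.000978, background 4.48%). Over the windows the change of nhr-2 was 1.44 ± 0.16 in N2, 0.86 ± 0.17 (adjusted p = 2.55e-05) in mex-3/skn-1, 1.55 ± 0.17 (adjusted p = 2.38e-13) in pie-1 and 1.22 ± 0.15 (adjusted p = 5.71e-11) in pie-1/pal-1. These values depend on the times used. In N2 the change was 0.67 over the times whose N2 arrays carry numbers and 0.99 as the mean of the gene's 4 probe sets. In the setting without arrays far from their group it was 0.65, where N2 lost no array but late times were 122 and 186 min. Each ended the call. In pie-1 it was 0.98 without arrays far from their group and 0.94 as the mean of the probe sets. In pie-1/pal-1 the same settings gave 0.57 and 0.77, with 0.88 in narrow windows (0 and 23 against 143 and 186 min) and 0.83 with replicates 3 and 4 alone, and all of these ended the calls. The other nhr-2 probe sets gave 1.55 ± 0.23, 1.03 ± 0.14 and -0.06 ± 0.07 in N2. They differed most in late mex-3/skn-1 minus N2, at -2.30 ± 0.22, -1.27 ± 0.14 and -0.03 ± 0.07, against -0.85 ± 0.15 (adjusted p = 3.28e-06) for the brightest.

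The genes nhr-34 and nhr-46 rose in all 4 genotypes. In N2 nhr-34 lay from 4.35 to 5.65 with a median of 5.26 early and from 5.74 to 7.44 with a median of 6.87 late, without overlap, a change of 1.60 ± 0.20. In the mutants it rose by 1.30 ± 0.22 (adjusted p = 8.28e-07) in mex-3/skn-1, 1.19 ± 0.22 (adjusted p = 2.18e-06) in pie-1 and 1.52 ± 0.20 (adjusted p = 1.59e-10) in pie-1/pal-1. The change of nhr-46 was 1.33 ± 0.22 in N2, and it rose by 1.76 ± 0.24 (adjusted p = 2.67e-09) in mex-3/skn-1, 1.41 ± 0.24 (adjusted p = 4.39e-07) in pie-1 and 1.77 ± 0.22 (adjusted p = 2.29e-11) in pie-1/pal-1. Late nhr-46 lay from 5.57 to 6.91 with a median of 6.30 in N2 and from 6.14 to 7.59 with a median of 6.74 in pie-1/pal-1. In mex-3/skn-1 it reached 6.91, 7.85, 6.95 and 7.05 at 122 min. The pair of mex-3/skn-1 arrays at 143 min, which stood far apart, measured 7.13 and 4.15 for nhr-34 and 7.90 and 3.71 for nhr-46, and the same array was low for both. Without 143 min both genes kept their calls in mex-3/skn-1. The second nhr-46 probe set gave 1.31 ± 0.16 in N2, and that of nhr-34 gave 0.93 ± 0.16, short of the 2-fold minimum. The pie-1 call of nhr-34 ended with the mean of both probe sets (0.81), in narrow windows (0.93) and without arrays far from their group (0.97).

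**Figure D4:**
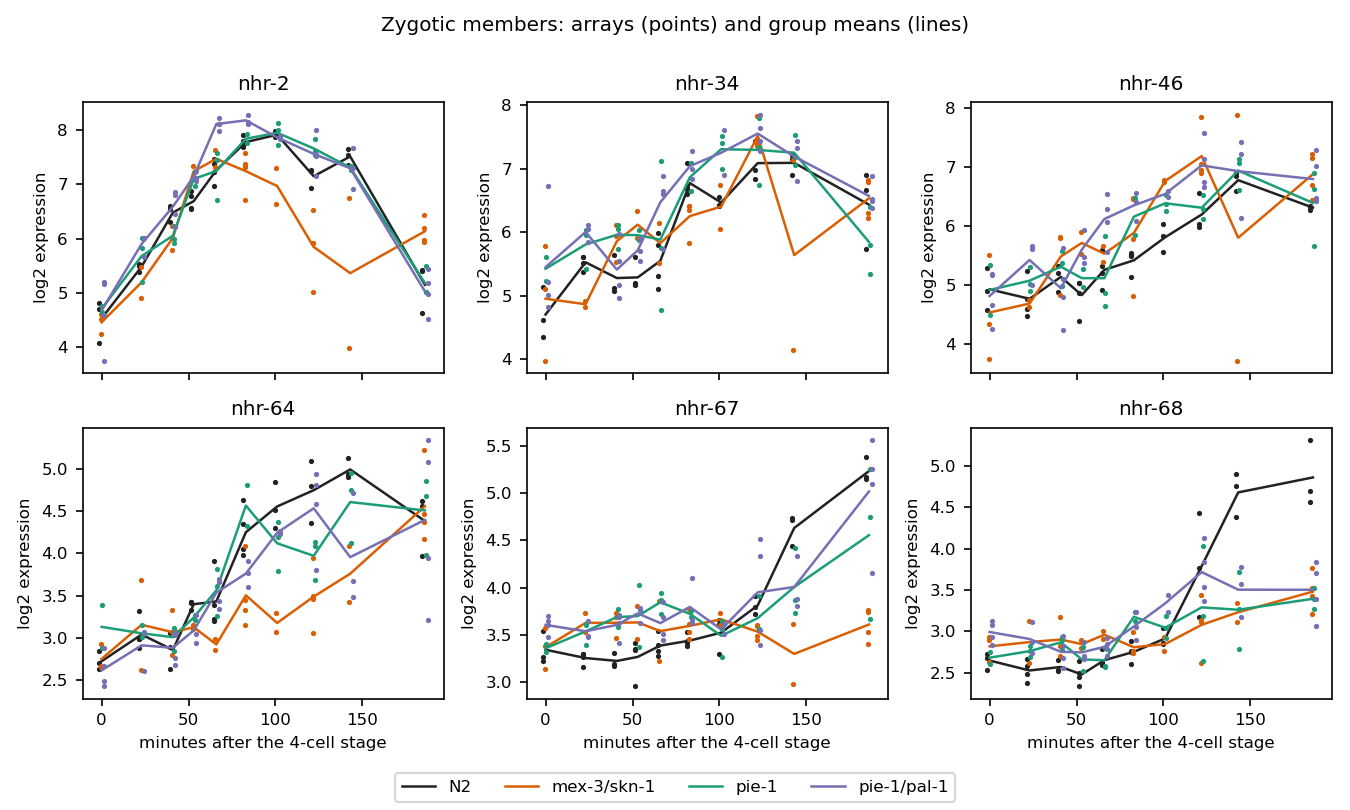
Values of 6 zygotic genes on each array (points, log2 expression) and group means (lines) over time in minutes after the 4-cell stage, with 1 colour per genotype and a separate vertical scale in each panel. The nhr-2 transcript peaks between 66 and 101 min and falls back, nhr-34 and nhr-46 rise in all genotypes, and nhr-67 and nhr-68 are high late in N2 and low in mex-3/skn-1 at 186 min.

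Rises that came later differed between genotypes. The HNF4-like gene nhr-64 was near the floor early, from 2.63 to 3.32 with a median of 2.89 in N2, and lay from 3.96 to 5.13 with a median of 4.70 late, a change of 1.79 ± 0.15. It rose by 1.23 ± 0.16 (adjusted p = 3.47e-10) in pie-1 and 1.48 ± 0.15 (adjusted p = 6.53e-15) in pie-1/pal-1, and measured 0.75 ± 0.17 (adjusted p = 0.000142) in mex-3/skn-1, not called over the window. At 83 min nhr-64 averaged 4.25 in N2, 3.76 in pie-1/pal-1, 4.56 in pie-1 and 3.50 in mex-3/skn-1. At 122 min its mex-3/skn-1 arrays measured 3.49, 3.46, 3.94 and 3.07 against 4.79, 4.36 and 5.09 in N2, and at 186 min 5.22, 4.37, 4.17 and 4.46 against 4.62, 4.56 and 3.96. In the pie-1/pal-1 arrays of 186 min nhr-64 spread widely, at 5.34, 5.08, 3.94 and 3.22. With replicates 3 and 4 of pie-1/pal-1 alone its change was 0.95, and the call ended.

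The tailless counterpart nhr-67, known for roles in neurons and in the anchor cell, rose late in the series. In N2 it measured 4.44, 4.72 and 4.74 at 143 min and 5.14, 5.38 and 5.17 at 186 min, above every earlier array. Its N2 window change of 1.02 ± 0.11 was 0.91 without 143 min, 0.82 under quantile normalization and 0.99 with arrays centred on their medians. It was 0.79 over the times with lettered N2 arrays and 0.997 without N2 replicate 2. Each ended the call, on which the zygotic class of nhr-67 rests. At 186 min it was 3.67, 4.75 and 5.25 in pie-1 and 5.09, 5.56, 5.26 and 4.15 in pie-1/pal-1, overlapping N2, but 3.74, 3.77, 3.41 and 3.53 in mex-3/skn-1. The difference of mex-3/skn-1 at 186 min was -1.62 ± 0.20 (adjusted p = 6.31e-10) from N2 (background 2.59%) and -1.41 ± 0.19 (adjusted p = 2.29e-09) from pie-1/pal-1. No mex-3/skn-1 group mean of nhr-67 was over 3.67 in the late window.

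The gene nhr-68, a regulator of an alternative breakdown route for propionate together with nhr-10, was lower at 186 min in all mutants than in N2. At 186 min it measured 4.57, 5.32 and 4.70 in N2, 3.77, 3.52, 3.43 and 3.21 in mex-3/skn-1, 3.53, 3.27 and 3.39 in pie-1 and 3.84, 3.07, 3.71 and 3.39 in pie-1/pal-1. All 3 N2 arrays lay above the highest mutant array, and the differences were -1.38 ± 0.19 (adjusted p = 1.9e-08) in mex-3/skn-1, -1.47 ± 0.20 (adjusted p = 6.41e-08) in pie-1 (background 2.08%) and -1.36 ± 0.19 (adjusted p = 6.83e-08) in pie-1/pal-1 (background 2.28%). Its partner nhr-10 had late medians of 5.27 in N2, 4.998 in pie-1, 5.04 in pie-1/pal-1 and 5.28 in mex-3/skn-1, and no late difference from N2 was called.

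Between genotypes in the late window few receptor genes were called. In mex-3/skn-1 minus N2 these were 2 genes, both lower (background 6.27%, and 6.12% lower). In pie-1 minus N2 limma called 0 (2.96%). There 99 of the 254 had an adjusted p under 0.05, all of them under 2-fold, and 121 an unadjusted one. In pie-1/pal-1 minus N2 there was 1, higher (2.33%, and 0.271% higher). In pie-1/pal-1 minus pie-1, which asks what RNA interference against pal-1 adds, limma again called 0 (0.0399%), with 4 at an adjusted and 39 at an unadjusted p under 0.05. In mex-3/skn-1 minus pie-1/pal-1 there were 4, of which 1 was higher and 3 lower (2.95%, with 0.639% higher and 2.31% lower). No other tool was run.

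The gene with the largest called late difference was nhr-232. Early arrays of all genotypes lay between 2.50 and 3.44. Late arrays lay from 3.36 to 4.92 with a median of 4.07 in N2, from 3.77 to 5.94 with a median of 4.76 in pie-1 and from 3.95 to 6.02 with a median of 5.46 in pie-1/pal-1, and from 2.52 to 3.31 with a median of 2.82 in mex-3/skn-1, where all arrays were below all arrays of the other genotypes. It rose by 1.95 ± 0.17 (adjusted p = 1.55e-17) in pie-1 and 2.52 ± 0.16 (adjusted p = 2.35e-26) in pie-1/pal-1, against a change of -0.03 ± 0.18 (adjusted p = 0.928) in mex-3/skn-1. The late difference was -1.28 ± 0.16 (adjusted p = 8.62e-11) for mex-3/skn-1 minus N2 and -2.49 ± 0.16 (adjusted p = 3.13e-25) for mex-3/skn-1 minus pie-1/pal-1. The first was -0.68 with arrays centred on probe sets averaging at least 5 and lost its call. The second stayed called in every alternative tried, from -2.02 to -2.76. In pie-1/pal-1 late nhr-232 was 1.21 ± 0.15 (adjusted p = 5.9e-10) above N2. That call ended with the pie-1/pal-1 arrays of replicates 3 and 4 alone, at 0.67, in narrow windows, at 0.77, and over the times with lettered N2 arrays, at 0.95. In late pie-1 minus N2 nhr-232 measured 0.59 ± 0.15 (adjusted p = 0.00117).

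The gene nhr-57, known as a target of the hypoxia factor HIF-1, rose and fell within the series. In N2 it measured 4.10, 4.45 and 3.68 at 41 min, 6.28, 5.75 and 6.54 at 122 min and 4.18, 4.495 and 4.14 at 186 min. In pie-1/pal-1 it measured 6.11 and 6.16 at 101 min and 6.09, 5.42, 6.07 and 5.05 at 122 min. Whether it peaked earlier than in N2 was not tested, and 1 of the 122 min arrays has a description that gives another time. The pie-1/pal-1 change over the windows was 1.15 ± 0.13 (adjusted p = 5.54e-13), a call that ended in narrow windows (0.52) and without pie-1/pal-1 replicate 3 (0.99). At 66 min nhr-57 in pie-1/pal-1 was 1.17 ± 0.22 (adjusted p = 3.1e-05) above N2 (background 5.56%). In mex-3/skn-1 late arrays lay from 3.42 to 4.36 with a median of 4.13, below the N2 arrays of 101 to 143 min. The late difference of mex-3/skn-1 was -1.27 ± 0.13 (adjusted p = 3.62e-14) from N2 and -1.18 ± 0.13 (adjusted p = 1.01e-12) from pie-1/pal-1. Both lost their calls with arrays centred on probe sets averaging at least 5 (-0.67 and -0.83), under quantile normalization (-0.87 and -0.999) and in narrow windows, which leave out the peak (-0.79 and -0.30). The second also ended with replicates 3 and 4 of pie-1/pal-1 alone (-0.84) and without arrays far from their group (-0.92).

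The gene nhr-243 started higher in N2 than in pie-1/pal-1 and rose in the latter. At 0 min it measured 4.56, 4.58 and 4.95 in N2 and 3.23, 3.40, 3.57 and 3.82 in pie-1/pal-1. At 101 min the pie-1/pal-1 arrays measured 5.78 and 4.71, the pie-1 arrays 4.88, 4.75 and 4.83 and the mex-3/skn-1 arrays 3.35 and 3.67. Its own change was 1.41 ± 0.16 (adjusted p = 1.24e-12) in pie-1/pal-1, 0.74 ± 0.18 (adjusted p = 0.000339) in pie-1 and 0.12 ± 0.18 (adjusted p = 0.714) in mex-3/skn-1. The late difference of mex-3/skn-1 from pie-1/pal-1 was -1.22 ± 0.16 (adjusted p = 1.6e-09). With replicates 3 and 4 of pie-1/pal-1 alone, and so without 101 min, the change was 0.63 and the difference -0.56, and both lost their calls. Without pie-1/pal-1 replicate 1 the difference was -0.88, in narrow windows -0.63, centred on probe sets averaging at least 5 -0.86 and without arrays far from their group -0.83, each short of a call.

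Some genes were higher in late mex-3/skn-1 embryos than in pie-1/pal-1. For nhr-171 the arrays at 186 min measured 5.43, 4.95, 5.01 and 4.72 in mex-3/skn-1, 4.30, 4.60 and 4.46 in N2, 3.70, 4.32 and 3.55 in pie-1 and 3.76, 3.93, 3.36 and 3.04 in pie-1/pal-1. Every mex-3/skn-1 array lay above all arrays of the other genotypes. The late difference of mex-3/skn-1 from pie-1/pal-1 was 1.12 ± 0.14 (adjusted p = 9.34e-11). Without 143 min it was 0.88 and without mex-3/skn-1 replicate 2 it was 0.82, and in both cases the call ended. Its own rise in mex-3/skn-1 was 1.03 ± 0.15 (adjusted p = 2.16e-08), and this call ended without 143 min (0.81) and without the arrays whose description gives another time (0.999). At 186 min alone the difference was 1.505 ± 0.23 (adjusted p = 1.91e-07). In the same group nhr-60, linked to the seam cells of the epidermis, and nhr-152 were higher as well, with mex-3/skn-1 arrays of 5.54, 4.95, 4.85 and 5.34 and 5.80, 5.27, 5.02 and 5.002. The pie-1/pal-1 arrays measured 3.51, 3.61, 3.84 and 3.21 for nhr-60 and 3.91, 3.85, 3.66 and 3.70 for nhr-152, below every mex-3/skn-1 array, and the differences were 1.63 ± 0.15 (adjusted p = 3.75e-15) and 1.497 ± 0.19 (adjusted p = 8.91e-10). In N2 at 186 min nhr-60 measured 3.71, 4.78 and 4.38 and nhr-152 3.88, 5.14 and 4.98, all below the mex-3/skn-1 arrays for nhr-60 and overlapping them for nhr-152.

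The gene nhr-23, the counterpart of vertebrate ROR and insect DHR3 and known for its role in moulting, fell in pie-1/pal-1, at -1.22 ± 0.10 (adjusted p = 5.96e-20), where it lay from 3.87 to 5.39 with a median of 4.58 early and from 3.05 to 3.71 with a median of 3.45 late. Against 0 min nhr-23 was also called lower at 83 min in N2, at -1.04 ± 0.18 (adjusted p = 7.82e-07), and in pie-1, at -1.06 ± 0.23 (adjusted p = 0.000198, background 14.2%). Its N2 change over the windows was -0.61 ± 0.10, and its second probe set gave -0.06 ± 0.07 in pie-1/pal-1, so that the mean of both (-0.64) was not called. The maternal gene nhr-70 rose by 1.03 ± 0.16 (adjusted p = 6.1e-08) in mex-3/skn-1 and 1.07 ± 0.14 (adjusted p = 3.56e-10) in pie-1/pal-1. Both nhr-70 calls lie near the 2-fold minimum and ended in 5 of 22 and 5 of 20 alternatives, among them 0.98 in mex-3/skn-1 without the arrays whose description gives another time and 0.92 with replicates 3 and 4 of pie-1/pal-1. Of the silent genes, nhr-181 measured -1.004 ± 0.09 in N2 and nhr-100 -1.07 ± 0.14 (adjusted p = 1.14e-10) in pie-1, and these ended in 10 of 35 and 3 of 18 alternatives. At 186 min in mex-3/skn-1 17 receptor genes were called against 0 min, 16 higher and 1 lower, or 6.69% of the 254. Among those higher were nhr-15, nhr-61, nhr-122 and nhr-4, at 1.28 ± 0.20, 1.43 ± 0.28, 1.36 ± 0.23 and 1.04 ± 0.24 (background 12.6%). Such calls were not limited to mex-3/skn-1, since nhr-15 was called higher in N2 at 122 min, at 1.01 ± 0.21 (adjusted p = 4.91e-05, background 17.6%), and in pie-1 at 122 min, at 1.03 ± 0.23 (adjusted p = 0.000276, background 16.1%), and nhr-61 in N2 at 143 min, at 1.197 ± 0.30 (adjusted p = 0.000901).

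**Figure D5:**
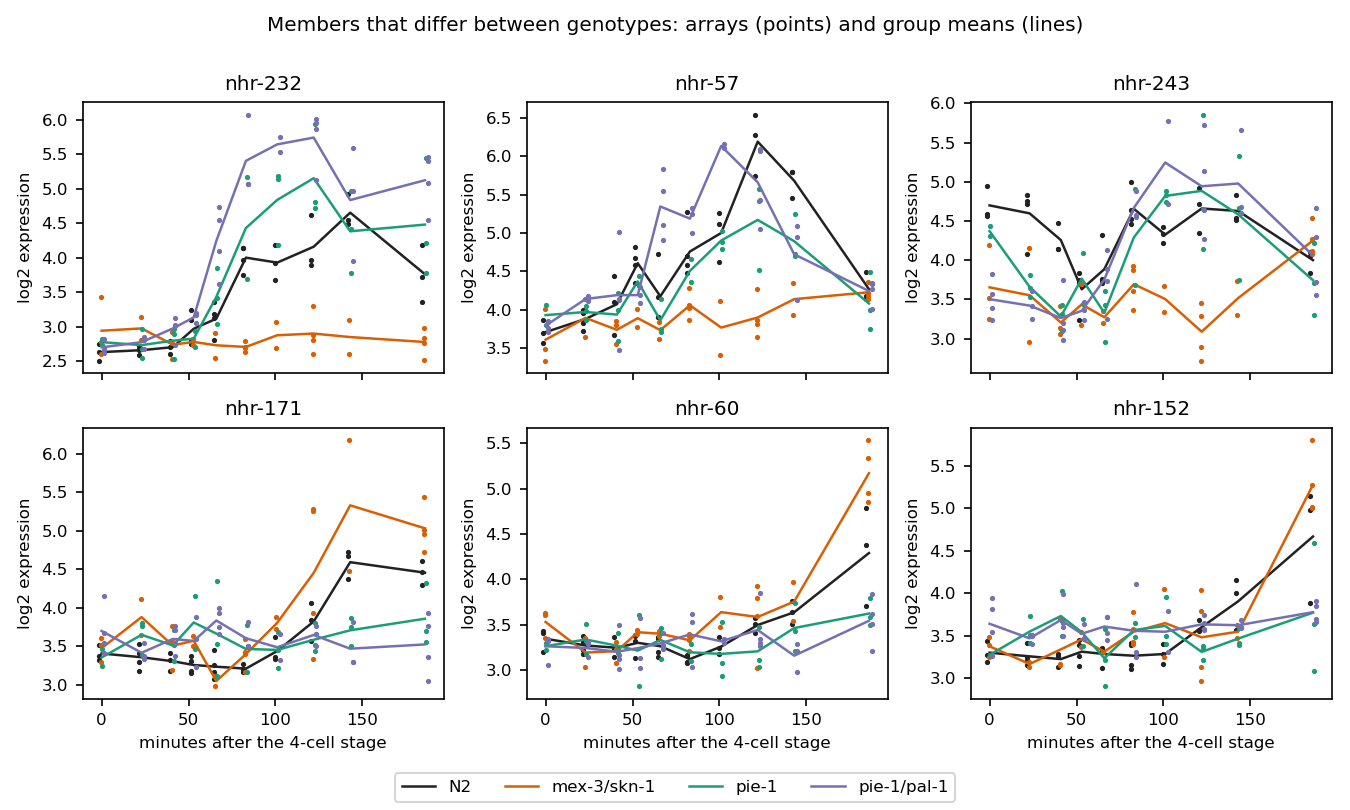
Values of 6 genes on each array (points, log2 expression) and group means (lines) over time in minutes after the 4-cell stage, with 1 colour per genotype and a separate vertical scale in each panel. In mex-3/skn-1 the nhr-232 and nhr-57 lines stay low, while at 186 min it has the highest means of nhr-171, nhr-60 and nhr-152, and pie-1/pal-1 reaches the highest nhr-232 values.

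Whether the change with time itself differed from that of N2 was tested by the difference of the changes. In mex-3/skn-1 5 receptor genes were called, all lower (background 3.70%, and 2.23% lower): nhr-232 at -1.50 ± 0.24 (adjusted p = 7.2e-07), nhr-68 at -1.18 ± 0.16 (adjusted p = 6.16e-09), nhr-57 at -1.13 ± 0.19 (adjusted p = 4.2e-06), nhr-64 at -1.04 ± 0.23 (adjusted p = 0.000348) and nhr-67 at -1.04 ± 0.17 (adjusted p = 1.06e-06). All are zygotic genes, a class chosen for its rise in the N2 arrays that enter this test, so the direction is in part set by the choice. In pie-1 only nhr-68 was called, lower (0.887%, and 0.572% lower), at -1.002 ± 0.16 (adjusted p = 2.34e-06). That call lies at the 2-fold minimum and ended in 17 of 40 alternatives, among them quantile normalization (-0.80), scan day as a block (-0.86) and leaving out 143 min (-0.80). The nhr-64 call in mex-3/skn-1 ended in 13 of 44 alternatives, at its smallest in narrow windows (-0.60), and was -0.68 without arrays far from their group and -0.94 without 143 min. The nhr-57 call was -0.91 without arrays far from their group, and that of nhr-67 was -0.85 without 143 min, both ended. With scan day as a block, an alternative chosen after the values were seen, nhr-57 was -0.82, nhr-64 -0.65 and nhr-67 -0.98, which left 2 of the 5 mex-3/skn-1 calls, nhr-232 and nhr-68. In pie-1/pal-1 nhr-243 at 1.52 ± 0.23 (adjusted p = 6.52e-07) and nhr-232 at 1.06 ± 0.22 (adjusted p = 0.000522) were called higher (1.17%, and 0.670% higher). With replicates 3 and 4 of pie-1/pal-1 alone these were 0.71 and 0.55, and both calls ended.

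Markers of other cell types also differed between genotypes. In late mex-3/skn-1 arrays the mean level of 3 endoderm markers was 3.35 to 4.35, against 4.96 to 5.86 in N2 and 5.08 to 6.31 in pie-1/pal-1. That of 2 pharynx and MS markers was 3.21 to 3.73 against 5.08 to 7.37 in N2, and that of 3 neuron markers 3.69 to 4.85 against 5.36 to 6.59. All 3 endoderm, both pharynx and 2 of the neuron markers were called lower than in N2 (6.12% of all probe sets were). The mean level of 3 muscle markers was 4.08 to 7.89 in mex-3/skn-1, 4.64 to 6.705 in N2 and 3.33 to 5.36 in pie-1/pal-1. That of 3 epidermis markers was 5.03 to 7.12 in mex-3/skn-1, 5.37 to 6.51 in N2 and 4.48 to 5.62 in pie-1/pal-1. None of these muscle or epidermis markers was called in mex-3/skn-1 minus N2. In late pie-1 minus N2 all 3 muscle and 2 of the epidermis markers were called lower (background 2.96%). In pie-1/pal-1 minus N2 all 3 muscle and 1 of the epidermis markers were (background 2.33%). The part of these markers in the receptor values was not tested. The difference between the 3' and 5' GAPDH probe sets averaged over all times 0.77 in N2, 1.19 in pie-1, 1.40 in pie-1/pal-1 and 1.48 in mex-3/skn-1 arrays. As a covariate it ended the 5 early mex-3/skn-1 calls given above and no other call of a named result. Markers of adult tissue lay between 2.85 and 3.49 and of sperm between 2.72 and 3.39 in all late arrays. Among early arrays the adult markers reached 4.53 in pie-1/pal-1 (median 3.03) and 3.50 in pie-1.

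Other genes of the pathway were read from short lists chosen with earlier results of these data known. Of 6 nuclear receptor genes with other names or left out of the set (daf-12, odr-7, unc-55, fax-1, sex-1 and nhr-25), 2 rose in N2, the X chromosome counting gene sex-1 by 1.88 ± 0.13 and nhr-25 by 1.51 ± 0.15, with a list median of 0.08 against 0.02 over all probe sets. Of 5 coregulators the acetyltransferase gene cbp-1 (by 1.47 ± 0.20) and the Mediator gene dpy-22 (by 1.75 ± 0.19) rose in N2, and the list median was 0.77. Of all probe sets 6.70% rose in N2. The Mediator subunit gene mdt-15, a coactivator of NHR-49, was lower in late mex-3/skn-1 than in N2, at -1.05 ± 0.11. In that comparison 6.12% of all probe sets were called lower, and the median over probe sets averaging at least 5 was -0.505. The mdt-15 value was not computed under the alternatives. In late pie-1/pal-1 minus N2 1 coregulator was called higher (0.271% of all probe sets). Of 5 genes for the synthesis of dafachronic acid, the ligand of DAF-12, 4 stayed under 5 in all groups, and the list median was 0.06.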

How the data were processed

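Transcript levels were measured on 123 Affymetrix arrays. The deposited expression values were used as given; they lie between 1.785 and 12.718 and were read as log2 from that range, while how the authors normalized them was not given in the sources used here. Of 22625 probe sets 77 controls were left out. The platform annotation gave 20810 of the rest 1 symbol, 843 several and 895 none, and names came from it and from the RefSeq table.

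A mean for each genotype and time was fitted with limma 3.58.1 in R 4.3.3, with eBayes and Benjamini-Hochberg adjustment over all probe sets of a contrast. The fit was tested on simulated data. A gene was called at an adjusted p under 0.05 and at least 2-fold. Named genes are those with the largest called changes in each contrast, the highest N2 means at 0 min and the members of short lists. Members, lists and tests were chosen with earlier results of these data known. Same-numbered arrays of a genotype had a median correlation of their deviations of 0.229 in pie-1/pal-1 (94 of 122 pairs over 0.1, other pairs -0.073). In the other genotypes it was 0.02 to 0.088, with pairs down to -0.27. Same-numbered arrays of pie-1/pal-1 thus tended to vary together. The labels do not say that a number marks a shared batch, and the main fit held no replicate block. Its SE and p-values for pie-1/pal-1 therefore treat as independent arrays that may not be. Alternatives changed the normalization, windows, probe sets, arrays, blocks and covariates. No sequences were analysed here.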

Additional observations from a re-analysis of the deposited data

Results flagged for a closer look

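Each group of 4 arrays was examined for several shown genes, so the 144 sets of 1 gene in 1 group share arrays and are not independent. In 12 of the 144 sets 1 array lay far from the other 3, where chance singles out about 1 in 20 sets. In N2 these were replicate 4 at 53 min for nhr-34 (5.60, others 5.16 to 5.20), replicate 1 at 83 min for nhr-46 (5.13, others 5.496 to 5.542), replicate 4 at 53 min for nhr-64 (3.33, others all at 3.42), replicate 1 at 53 min for nhr-67 (2.96, others 3.35 to 3.42) and replicate 4 at 66 min for nhr-68 (2.78, others 2.59 to 2.62). For nhr-243 in N2 they were replicate 3 at 23 min (4.08, others 4.72 to 4.84) and replicate I at 66 min (4.32, others 3.71 to 3.76). In mex-3/skn-1 they were replicate 7 at 83 min for nhr-34 (5.83, others 6.35 to 6.42), replicate 2 at 122 min for nhr-46 (7.85, others 6.91 to 7.05) and replicate 5 at 83 min for nhr-68 (2.99, others 2.74 to 2.77). In pie-1/pal-1 they were replicate 3 at 122 min for nhr-232 (5.13, others 5.87 to 6.02) and replicate 1 at 41 min for nhr-49 (7.95, others 7.30 to 7.32).

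The change with time differed from that in N2, by the limma test of the difference, for 6 genes. In mex-3/skn-1 it was smaller for nhr-57 (-1.13 ± 0.19), nhr-67 (-1.04 ± 0.17), nhr-64 (-1.04 ± 0.23), nhr-232 (-1.50 ± 0.24) and nhr-68 (-1.18 ± 0.16). In pie-1 it was smaller for nhr-68 (-1.002 ± 0.16). In pie-1/pal-1 it was larger for nhr-243 (1.52 ± 0.23) and nhr-232 (1.06 ± 0.22).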

How the results depend on the processing

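Of 1738 values of 56 named results under alternatives, 1581 kept their call, 157 lost it and 0 turned direction. Counts of called genes moved by over 1.5 times as follows, and the cause was not tested. Narrow windows gave 17 genes in N2 (from 11), 9 in mex-3/skn-1 (from 5), 2 in late pie-1 minus N2 (from 0), 2 in late pie-1/pal-1 minus N2 (from 1) and 2 for the change in pie-1 (from 1). Quantile normalization gave 1 in late mex-3/skn-1 minus N2 (from 2), 1 for the change in mex-3/skn-1 (from 5) and 0 for that in pie-1. Centring on probe sets averaging at least 5 gave 8 in mex-3/skn-1, 3 for its change against N2 (from 5), 0 for that in pie-1 and 1 for that in pie-1/pal-1 (from 2). Centring on array medians, scan day as a random block and leaving out 143 min each gave 0 for the change in pie-1. Times with lettered N2 arrays gave 6 in late mex-3/skn-1 minus N2, 1 in late pie-1 minus N2 and 0 in late pie-1/pal-1 minus N2, and 0 for the change in pie-1 and 1 for that in pie-1/pal-1, and times with numbered N2 arrays 9 for that in mex-3/skn-1. Replicates 3 and 4 of pie-1/pal-1 gave 6 for its own change (from 10), 3 in pie-1/pal-1 minus N2 and 2 in mex-3/skn-1 minus pie-1/pal-1 (from 4). Leaving out arrays far from their group, an alternative chosen after seeing the data, gave 11 in mex-3/skn-1, 2 in late pie-1 minus N2 and 4 for the change in pie-1/pal-1. Leaving out the 2 arrays whose description gives another time gave 3 in mex-3/skn-1. Scan day as a fixed block within genotype, also chosen after seeing the data, gave 2 for the change in mex-3/skn-1 and 0 for that in pie-1, and 11 in N2, of which 9 were called without the block, with nhr-12 and nhr-181 (-0.92) lost. In mex-3/skn-1 it ended the nhr-70 call (0.97).

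Leaving out 1 replicate label in turn gave 9 to 12 genes in N2, 4 to 6 in mex-3/skn-1, 6 to 7 in pie-1 and 8 to 10 in pie-1/pal-1. It gave 2 to 4 in late mex-3/skn-1 minus N2, 0 to 1 in late pie-1 minus N2, 0 to 1 for the change in pie-1 and 1 to 2 for that in pie-1/pal-1. With the replicate block within genotype the counts were 11, 4, 7 and 10 for the own changes and 3, 0 and 1 for the changes against N2. It ended the calls of nhr-67 (-0.97) and nhr-64 (-0.96) for the change in mex-3/skn-1, nhr-68 in pie-1 (-0.99), nhr-232 in pie-1/pal-1 (0.91), and nhr-70 (0.88) and nhr-171 (0.89) in mex-3/skn-1. A replicate block shared across genotypes left the late contrasts at 2, 0, 1, 0 and 4. It put equal numbers of different genotypes in 1 block, a link that the labels do not state. A level of 4.5 gave 13 maternal genes without a call, 5 zygotic and 17 without a class, and a level of 5.5 gave 1 falling and 4 without a class. At 4.5 a rising gene counts as maternal where its N2 mean at 0 min reaches that level, as for nhr-2 (4.53) and nhr-46.

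Scan day and genotype cannot be told apart between genotypes, groups of 2 to 4 arrays limit single times, and signals near the floor limit what can be said of silent genes. The search for promoter motifs and protein domains was not run.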
